A study of Mus musculus with 33 samples.

Results

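The genes described here are 10 histone genes that lie outside, or can escape, the replication-coupled mode of histone expression, and they were measured by RNA sequencing of the mouse hippocampal CA1 region. The rule that chose them names genes and uses no measured value, though earlier results of these data were known, and it rests on the fact that polyadenylated and variant histone genes are often raised by inhibitors of BET bromodomain proteins. They are the linker histone genes Hist1h1c and H1f0, the H2B genes Hist1h2bc, Hist1h2be and Hist2h2be, the H2A variant genes H2afz, H2afx and H2afy, and the H3.3 genes H3f3a and H3f3b. All 10 are among the 38355 genes listed for the aged mice and the 40678 loci listed for the young mice, and all 10 passed the filter on low values in both.

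JQ1, an inhibitor of the BET bromodomain, was injected intraperitoneally at 50 mg/kg, and control animals received 10% DMSO. The aged experiment used animals of 8-10 months treated for 10 days: APP/PS1-21 mice given JQ1 (n = 6), APP/PS1-21 mice given vehicle (n = 6) and wild-type (WT) mice given vehicle (n = 4 with values). The APP/PS1-21 line, called APP mice below, carries mutant human transgenes of familial Alzheimer's disease, driven by the neuronal Thy1 promoter in a C57B/6 background, so the model overexpresses them in neurons. The aged WT mice are WT by their titles, which were followed, although their strain field names the APP/PS1-21 line. Of 5 aged WT mice, replicate 2 was not analysed here, and no aged WT mouse received JQ1. The young experiment used WT C57B/6JRj mice of 3 months given JQ1 (n = 8) or vehicle (n = 8) for 13 days. The authors' methods name males for the purchased WT mice and females for behavioural tests of the APP line. By the same methods, RNA was taken after the probe test of a water maze.

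Most core histone mRNAs are made only in S phase and end in a stem-loop in place of a poly(A) tail. Variant histones such as H2A.Z, macroH2A and H3.3 come from genes with ordinary polyadenylated transcripts. They are laid into chromatin throughout the cell cycle, which makes them the main source of new histones in neurons that no longer divide. A few genes of the replication-dependent clusters, Hist1h1c, Hist1h2bc, Hist1h2be and Hist2h2be among them, can also give polyadenylated transcripts in differentiated cells, and such transcripts are the ones that poly(A) selection retains. Whether these libraries were poly(A)-selected or depleted of ribosomal RNA is not given in the sources used here. BET proteins bind acetylated histone tails and recruit the elongation kinase P-TEFb, and JQ1 displaces them from chromatin.

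RefSeq promoters were found for 7 of the 10 genes, and none was found for Hist1h2bc, Hist2h2be and H2afx. The upstream windows of Hist1h1c, Hist1h2be and H1f0 are printed because the first of these 3 genes had the lowest p-value of the members in 1 comparison, the second was the member most correlated with it in the young mice, and the third is the linker histone of a different type. In the young mice the value of Hist1h2be is a joined locus that also holds the linker histone gene Hist1h1e. Each window is the 250 bases before an annotated start in GRCm38.p6 (RefSeq), 5′ to 3′ on the strand of the gene. Capitals mark matches to motifs of histone promoters, namely AAACACA (the H1 box), CCAAT and ATTTGCAT (the octamer), searched on both strands together with TATAAA and the E2F-type TTTCCCGC. The windows lie at chr13:23738557-23738806 (plus strand, Hist1h1c), chr13:23585971-23586220 (minus strand, the downstream of the 2 annotated promoters of Hist1h2be) and chr15:79027962-79028211 (plus strand, H1f0).
Hist1h1c: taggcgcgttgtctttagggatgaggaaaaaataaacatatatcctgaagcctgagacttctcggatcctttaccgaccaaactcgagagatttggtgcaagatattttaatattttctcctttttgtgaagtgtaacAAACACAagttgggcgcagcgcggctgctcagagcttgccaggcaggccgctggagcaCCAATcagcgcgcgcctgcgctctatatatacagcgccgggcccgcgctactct
Hist1h2be: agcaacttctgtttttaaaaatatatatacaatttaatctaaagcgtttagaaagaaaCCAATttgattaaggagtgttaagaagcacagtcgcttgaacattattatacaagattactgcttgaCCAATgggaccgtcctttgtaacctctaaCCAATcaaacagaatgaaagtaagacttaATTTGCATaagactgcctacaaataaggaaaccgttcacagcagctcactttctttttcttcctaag
H1f0: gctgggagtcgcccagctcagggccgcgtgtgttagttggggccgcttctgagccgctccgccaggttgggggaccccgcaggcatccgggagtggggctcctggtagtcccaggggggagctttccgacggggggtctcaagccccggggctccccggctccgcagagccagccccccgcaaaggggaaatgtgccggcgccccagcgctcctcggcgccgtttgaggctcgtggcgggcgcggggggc

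The Hist1h1c window held the H1 box starting 112 bases and a CCAAT starting 54 bases before the start. The Hist1h2be window held CCAAT at 192, 125 and 96 bases and the octamer at 67 bases before the start. The H1f0 window held none of the 5 motifs, and no match in these windows overlapped another. The H1f0 window ends at chr15:79028211, upstream of the gene start at chr15:79028450 in the annotation used for exon lengths. The bases between were not searched, so a motif nearer that start would be missed. Among 32851 RefSeq promoter windows of the same length, AAACACA was present in 6.25%, CCAAT in 33.9%, ATTTGCAT in 1.60%, TATAAA in 12.4% and TTTCCCGC in 0.895%. The window of H3f3b, an H3.3 gene, matched CCAAT at 4 positions, the octamer at 1 and TATAAA at 1, and that of H2afz matched CCAAT at 2 positions, whereas that of H2afy held no match. These matches describe letters only, and no factor binding was measured.

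The aged libraries held 14605459 to 25339482 reads assigned to genes, and for the young mice only FPKM values (fragments per kilobase of transcript, scaled to sequencing depth) were used, for which the depth is unknown. Summed CA1 pyramidal markers (Wfs1, Fibcd1, Pou3f1 and Mpped1) ranged from 693 to 1126 CPM (counts scaled by library size) in the aged mice and from 192 to 294 FPKM in the young mice, so CA1 markers were present in all 32 libraries. The library labelled APP JQ1 replicate 4 went against its label, by a check of genes that were chosen after their values were seen. It had 820 CPM of Thy1, whose promoter drives the transgenes, against 1618 to 2070 CPM in the other 5 APP JQ1 libraries, 1890 to 2342 CPM in APP vehicle and 841 to 1070 CPM in WT. Its Gfap level, an astrocyte marker that rises around plaques, was 322 CPM against 1610 to 4076 CPM in the other APP JQ1 libraries and 249 to 321 CPM in WT. Cst7, a gene of plaque-associated microglia, also lay outside the other APP mice, at 0 CPM against 13.7 to 55.6 CPM. The library stays in its labelled group below, and each comparison of these genes that has it in a compared group is also given without it. The 3 aged groups share 1 fit, so it also enters the spread used for APP vehicle against WT. There edgeR called 436 genes with it and 601 without it, and 0 members in both. Choroid plexus markers summed to 3142 CPM in WT replicate 4 and to between 22.5 and 141 CPM in the other aged mice, and 4 aged libraries (APP JQ1 replicates 3 and 4, APP vehicle replicate 4 and WT replicate 1) stood apart on the first principal component. In bulk tissue, fewer cells of a type and less RNA per cell cannot be told apart. The p-values set a difference against the spread between mice within groups, which edgeR took over the 3 aged groups together.

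Levels of different genes were compared per length of exon, taken in the aged mice over all annotated exons of a gene. In the aged WT mice the highest levels were those of H1f0, the linker histone of non-dividing cells, with a median of 45.7 CPM per kb (45.3 to 66.5, n = 4), and of H3f3b, with 34.7 CPM per kb (34.1 to 39.4). These 2 genes did not overlap each other or any other member. Then came Hist1h2bc with 14.7 CPM per kb (11.9 to 17.9), H2afy with 12.4 (11.2 to 12.8) and H2afx with 10.7 (9.25 to 12.2), and neighbours in this order overlapped. H2afy encodes macroH2A1, a variant with a large extra domain, and H2afx encodes the variant that is phosphorylated at DNA breaks. Hist1h1c followed with 7.22 CPM per kb (6.11 to 8.62), apart from its neighbours on both sides. H3f3a at 3.41 (3.26 to 4.34), H2afz at 3.05 (2.29 to 5.16) and Hist2h2be at 2.66 CPM per kb (2.29 to 3.54) overlapped one another, and Hist1h2be was lowest at 0.686 CPM per kb (0.594 to 0.912).

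In the young vehicle mice the order on the FPKM scale differed. H3f3b came first with a median of 96.3 FPKM (84.5 to 103, n = 8), followed by H3f3a with 82.1 (67.1 to 87.9) and H2afz, the gene of H2A.Z, with 73.1 FPKM (61.0 to 83.7), each overlapping the next. H2afy with 46.0 FPKM (38.2 to 48.6) and H1f0 with 44.5 (38.9 to 47.7) overlapped each other and no other member. Hist1h2bc with 18.3 FPKM (15.98 to 27.3) stood alone, and H2afx with 9.36 (8.07 to 10.7) overlapped Hist1h1c with 9.32 (7.92 to 14.01). Hist2h2be with 5.10 FPKM (4.64 to 6.58) was above Hist1h2be with 2.66 (1.96 to 4.01), which was again the lowest member.

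The genes whose rank differed between aged WT and young vehicle mice included H2afz (8 and 3) and H3f3a (7 and 2). Among them were also H1f0 (1 and 5) and Hist1h2bc (3 and 6). Of the 50-base windows of H2afz, 69.6% also occurred in another annotated gene, and of those of H3f3a 16.4% did, in 40 other genes. The same share was 30.6% for Hist1h2bc, 11.4% for Hist1h2be, 8.54% for Hist1h1c, whose copies lay in Hist1h1d and Hist1h1e, 8.40% for H3f3b and 6.14% for H2afx, and it was 0 for H1f0, Hist2h2be and H2afy. Windows found only in an overlapping gene, such as 13.9% for H3f3a and 5.68% for H1f0, are not part of these shares. The aged counts leave out reads that align to more than 1 place, and these levels are therefore uncertain for the genes with copies. H3f3a and H3f3b encode the same H3.3 protein, and the ratio of H3f3b to H3f3a had a median of 10.1 in aged WT mice (9.08 to 10.5, n = 4, CPM per kb) and of 1.16 in young vehicle mice (1.06 to 1.296, n = 8, FPKM). The part of counting, age and experiment in this gap cannot be told apart.

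**Figure D1:**
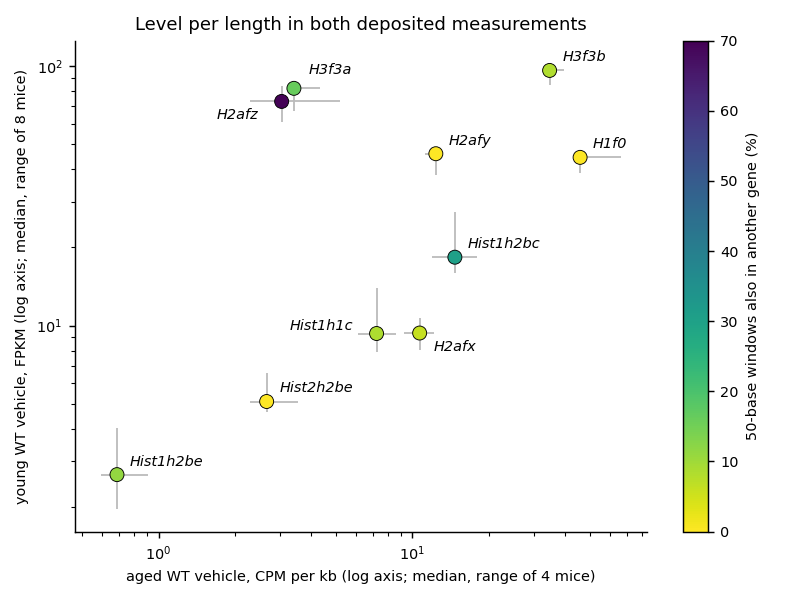
Level of each histone gene per length in aged WT vehicle mice (x axis, CPM per kb, log axis, median and range of 4 mice) and in young WT vehicle mice (y axis, FPKM, log axis, median and range of 8 mice). Colour gives the percentage of 50-base windows that also occur in another gene. H2afz (69.6%), H3f3a (16.4%) and H2afy (0%) sit higher on the FPKM axis than genes of like CPM per kb.

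The 10 genes summed to 318 to 404 CPM in the aged mice, which was 74.0% to 79.0% of all counts on histone genes. The groups overlapped, with medians of 380 CPM in APP JQ1, 384 CPM in APP vehicle and 357 CPM in WT. Between mice of a group, H2afy and H3f3b varied least of the members in the aged mice, with a standard deviation of log2 level of 0.11 and 0.14, and H3f3b (0.10), H1f0 (0.11) and H2afy (0.11) in the young mice. Hist1h2be varied most in both, with 0.37 and 0.35. The median over all features was 0.25 in the aged and 0.19 in the young mice.

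The first comparison, APP mice given JQ1 against APP mice given vehicle, asks whether JQ1 altered these transcripts in the diseased hippocampus. None of the 10 genes changed by the edgeR quasi-likelihood test at an adjusted p under 0.05, beside 184 (1.08%) of all 16962 genes tested. An unadjusted p under 0.05 was found for 0 of 10, beside 17.6% of all genes, and DESeq2 called 0 of 10, beside 5.33%. Groups did not overlap for 0 of the 10 genes, against 2.03% of all genes. The log2 fold change was above 0 for 4 of the 10, with a median of -0.05 and a median absolute size of 0.13, beside -0.0010 and 0.16 over all genes.

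**Figure D2:**
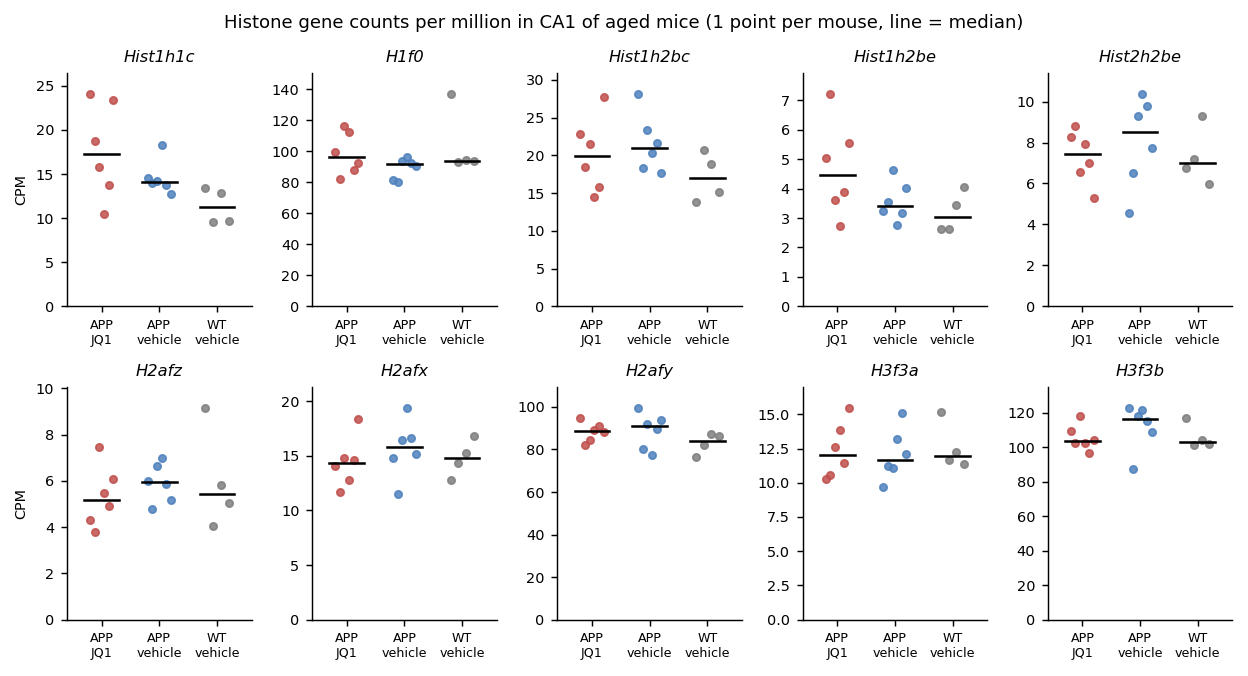
Level of each histone gene in every aged mouse, in CPM on a linear axis from 0 for the groups APP JQ1 (6 mice), APP vehicle (6) and WT vehicle (4), with 1 point per mouse and a line at the group median. The groups overlap for all 10 genes, and Hist1h1c runs from 10.5 to 24.0 CPM in the JQ1-treated APP mice.

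The linker histone genes gave positive estimates in the JQ1-treated APP mice. Hist1h1c encodes H1.2, a linker histone that binds where DNA enters and leaves the nucleosome, and it lies at chr13:23738808-23740367 (GRCm38, 1 exon). Its CPM in the 6 APP JQ1 libraries, replicates 1 to 6, was 24.0, 18.7, 15.8, 10.5, 13.7 and 23.4. In the APP vehicle libraries it was 14.6, 13.9, 14.2, 18.3, 13.8 and 12.7 CPM. APP JQ1 replicates 1, 2 and 6 were above every vehicle mouse, and the library labelled replicate 4 was below every vehicle mouse. The log2 fold change was 0.28 (95% interval -0.08 to 0.65, adjusted p = 0.421, edgeR) and the two-sided exact permutation p was 0.286, where the smallest possible is 0.00216. For H1f0, at chr15:79028450-79030504 and encoding H1.0, the lowest, median and highest CPM were 81.9, 96.1 and 116 with JQ1 and 80.2, 91.6 and 96.0 with vehicle. Its log2 fold change was 0.14 (-0.08 to 0.37, adjusted p = 0.505, edgeR), and the groups overlapped.

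Among the H2B genes, the least abundant one had the largest estimate. Hist1h2be, at chr13:23583670-23621124 on the minus strand, had 2.73, 4.47 and 7.20 CPM (lowest, median, highest) with JQ1 and 2.75, 3.39 and 4.62 CPM with vehicle. It was above the vehicle median in 5 of 6 JQ1 libraries, with a log2 fold change of 0.40 (-0.07 to 0.86, adjusted p = 0.364, edgeR; exact permutation p = 0.167). Hist1h2bc, at chr13:23684199-23692908, had 14.5, 19.98 and 27.8 CPM with JQ1 and 17.7, 21.0 and 28.1 CPM with vehicle, and a log2 fold change of -0.10 (-0.43 to 0.23). Both genes lie in the large histone cluster of chromosome 13, whereas Hist2h2be lies in a smaller cluster at chr3:96221119-96223738. Hist2h2be had 5.29, 7.46 and 8.82 CPM with JQ1 and 4.55, 8.53 and 10.3 CPM with vehicle, and a log2 fold change of -0.14 (-0.53 to 0.26). In all 3 genes the groups overlapped, and the intervals allow changes of either sign.

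The 3 H2A variants had estimates below 0, none of them called. H2afy had 82.1, 88.8 and 94.9 CPM with JQ1 and 77.5, 90.8 and 99.6 CPM with vehicle, and its log2 fold change of -0.01 had an interval of -0.16 to 0.14, one of the narrowest here. H2afx had 11.7, 14.3 and 18.3 CPM with JQ1 and 11.5, 15.8 and 19.4 CPM with vehicle, with a log2 fold change of -0.12 (-0.39 to 0.15). With offsets for GC content and gene length the H2afx estimate turned to 0.17, that of H2afy to 0.03 and that of the H3.3 gene H3f3a to -0.13, none of them called. H2afz had 3.80, 5.18 and 7.47 CPM with JQ1 and 4.80, 5.94 and 7.01 CPM with vehicle, with a log2 fold change of -0.15 (-0.57 to 0.27).

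The 2 genes of the replacement histone H3.3 had estimates on either side of 0. H3f3a had 10.3, 12.02 and 15.5 CPM with JQ1 and 9.71, 11.7 and 15.1 CPM with vehicle, with a log2 fold change of 0.03 (-0.24 to 0.31). H3f3b had 97.0, 104 and 118 CPM with JQ1 and 87.7, 117 and 123 CPM with vehicle, with a log2 fold change of -0.09 (-0.26 to 0.08). Of the 10 genes, Hist1h1c, Hist1h2be and H1f0 had intervals that reach above 0.31 on the log2 scale, and the other 7 did not.

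Without the library labelled APP JQ1 replicate 4, still 0 of 10 genes were called by edgeR, beside 0.431% of all genes (73 of 16948), and groups did not overlap for 0 of 10 beside 2.25%. Unadjusted p-values under 0.05 then appeared for 2 of 10 genes, beside 13.6% of all genes. Hist1h1c had a log2 fold change of 0.40 (0.07 to 0.72, p = 0.0189, adjusted p = 0.263, edgeR; exact permutation p = 0.0606) and was above the vehicle median in 4 of 5 libraries. Hist1h2be had 0.51 (0.08 to 0.95, p = 0.0237, adjusted p = 0.285, edgeR; exact permutation p = 0.0433) and was above the vehicle median in 5 of 5 libraries. With 5 against 6 mice the smallest permutation p is 0.00433.

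The second comparison, vehicle-treated APP against WT mice, asks how the same transcripts stood in the disease model without the drug. It shares the APP vehicle libraries with the first comparison. None of the 10 genes was called by edgeR, beside 436 of 16962 genes (2.57%), or by DESeq2, beside 4.22%. An unadjusted edgeR p under 0.05 was found for 0 of 10, beside 14.4% of all genes. Groups did not overlap for 0 of 10 genes, beside 6.99% of all genes. The members' median log2 fold change was 0.09, with 7 of 10 above 0, and the median absolute size was 0.12 beside 0.155 for all genes.

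Hist1h1c had 13.4, 9.54, 12.9 and 9.63 CPM in WT replicates 1, 3, 4 and 5, and was above the WT median in 6 of 6 APP vehicle mice. Only 1 APP vehicle library, at 12.7 CPM, lay within the WT range. Its log2 fold change was 0.36 (-0.06 to 0.77, adjusted p = 0.425, edgeR), with an exact permutation p of 0.0286 against a smallest possible value of 0.00952. Hist1h2bc, with 13.8, 20.7, 18.8 and 15.1 CPM in the WT mice, was likewise above the WT median in 6 of 6 APP vehicle mice, with a log2 fold change of 0.33 (-0.04 to 0.71, adjusted p = 0.404, edgeR; exact permutation p = 0.0952). H1f0 pointed the other way, with 137, 93.0, 94.1 and 93.9 CPM in WT and a log2 fold change of -0.23 (-0.48 to 0.02, adjusted p = 0.384, edgeR), which became -0.08 without WT replicate 1. The remaining 7 genes had log2 fold changes between -0.06 for H3f3a and 0.15 for Hist1h2be. Among them, H2afz had 9.16, 4.06, 5.82 and 5.03 CPM in WT and changed from -0.02 to 0.24 when WT replicate 1 was left out.

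The third comparison, JQ1-treated APP mice against WT mice given vehicle, places the treated animals beside the unaffected ones. It reuses the libraries of both preceding comparisons. Of the 10 genes, 0 were called by edgeR, beside 2.06% (349) of all genes, and 2 had an unadjusted p under 0.05, beside 14.1%. DESeq2 called 1 of 10, Hist1h1c, with a log2 fold change of 0.63 (adjusted p = 0.043), beside 4.21% of all genes. Groups did not overlap for 0 of 10 members beside 3.71% of all genes.

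Hist1h1c had the largest difference of the members, 0.64 on the log2 scale (0.22 to 1.06, p = 0.0048, adjusted p = 0.115, edgeR), or 1.56-fold, and was above the WT median in 5 of 6 APP JQ1 libraries (exact permutation p = 0.0476). The exception was the library labelled replicate 4, at 10.5 CPM. Without it the range was 13.7 to 24.0 CPM in APP JQ1 against 9.54 to 13.4 CPM in WT, which no longer overlap, and Hist1h1c was higher by 0.74 (0.38 to 1.11, adjusted p = 0.0182, edgeR), or 1.67-fold, with an exact permutation p of 0.0159, the smallest that 5 against 4 mice allow. In that fit 1 of 10 members was called, beside 3.84% of all genes (651 of 16948), and groups did not overlap for 1 of 10 beside 7.72%. Without the 4 libraries apart on the first principal component, an alternative chosen after seeing the data, Hist1h1c was the 1 member called (0.89, adjusted p = 0.0111, edgeR), beside 3.9% of all genes. These 4 include the library labelled APP JQ1 replicate 4, the lowest treated value of Hist1h1c, and WT replicate 1, its highest WT value. This setting is therefore not separate from the one above.

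Like Hist1h1c, microglial and astrocyte markers were higher in most APP mice than in every WT mouse. Their order within groups matched that of Hist1h1c only in part. The 5 markers Cx3cr1, P2ry12, Csf1r, Tmem119 and Aif1 summed to 553, 520, 335, 209, 385 and 522 CPM in APP JQ1 replicates 1 to 6. They summed to 394, 425, 490, 484, 415 and 355 CPM in APP vehicle and to 195, 208, 227 and 226 CPM in WT. The 3 APP JQ1 mice with the highest marker sums were those with the most Hist1h1c, and the library labelled replicate 4 was in the WT range on both measures. Of the 5 markers, 2 (Cx3cr1 and Csf1r) were called higher by edgeR in APP vehicle against WT and in JQ1-treated APP against WT mice, and 0 of 5 were called between JQ1 and vehicle in APP mice. The 4 astrocyte markers Gfap, Aqp4, Slc1a3 and Aldh1l1 summed to 5460, 3900, 2846, 1221, 2543 and 4247 CPM in APP JQ1 replicates 1 to 6, which is the rank order of Hist1h1c in these libraries. They summed to 6226, 3685, 3740, 3472, 2799 and 2071 CPM in APP vehicle, where replicate 4, the highest for Hist1h1c, was not the highest, and to between 1061 and 1092 CPM in WT. Of the 4, 1 (Gfap) was called higher by edgeR in APP vehicle against WT, 3 (Gfap, Aqp4 and Slc1a3) in JQ1-treated APP against WT, and 0 between JQ1 and vehicle in APP mice. Over all genes, 2.57% were called in APP vehicle against WT, 2.06% in JQ1-treated APP against WT and 1.08% between JQ1 and vehicle in APP mice. The part of both marker lists in the Hist1h1c differences was not tested.

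**Figure D3:**
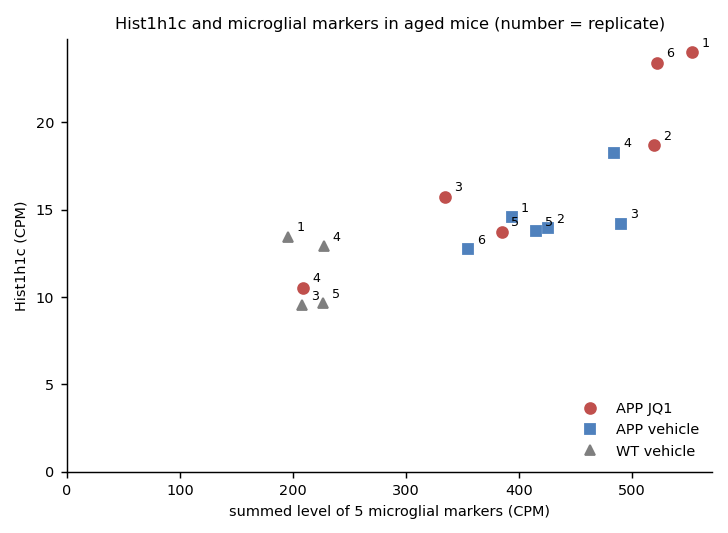
Hist1h1c in CPM (y axis) against the summed CPM of 5 microglial markers (x axis) in each of the 16 aged mice, both on linear axes from 0, with the replicate number beside each point. The WT mice and the library labelled APP JQ1 replicate 4 sit at 195 to 227 CPM of markers and 9.54 to 13.4 CPM of Hist1h1c, and APP JQ1 replicates 1 and 6 sit highest.

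Hist1h2be was the other gene with an unadjusted p under 0.05 in the third comparison, with 2.64, 2.64, 3.46 and 4.06 CPM in WT and a log2 fold change of 0.55 (0.02 to 1.07, p = 0.0413, adjusted p = 0.325, edgeR; exact permutation p = 0.114). Without the library labelled APP JQ1 replicate 4 it was 0.65 (0.16 to 1.14, adjusted p = 0.159, edgeR). Hist1h2bc had a log2 fold change of 0.24 (-0.14 to 0.61) and H2afz of -0.17 (-0.64 to 0.29). The other 6 genes lay between -0.09 for H1f0 and 0.09 for H2afy, and the H3.3 genes were at -0.03 (-0.34 to 0.28) for H3f3a and -0.01 (-0.20 to 0.18) for H3f3b.

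**Figure D4:**
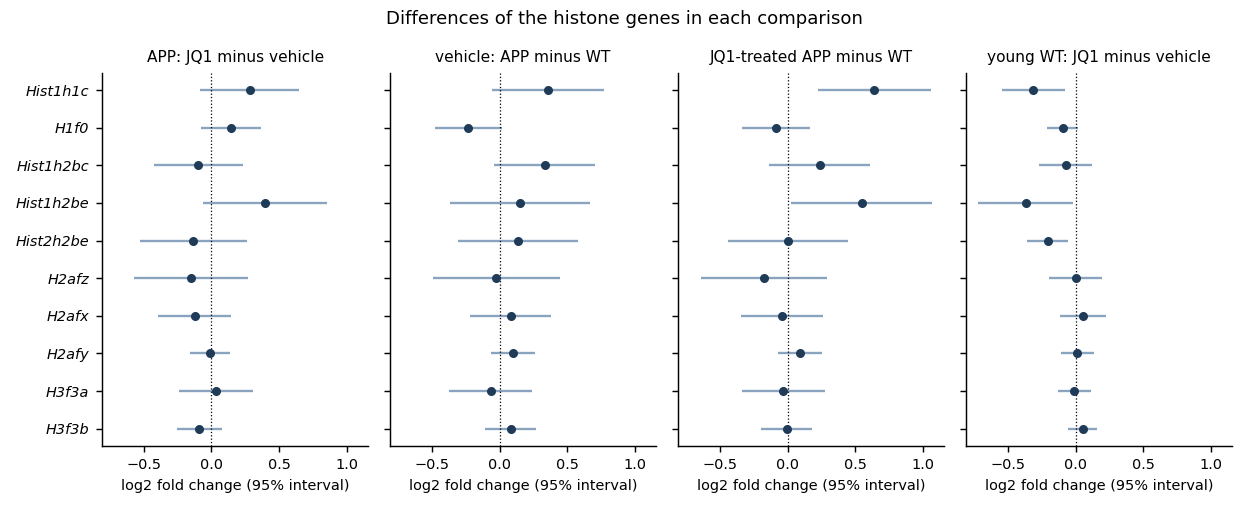
Log2 fold change of each histone gene (points) with its 95% interval (lines) in the comparisons of APP JQ1 with APP vehicle, APP vehicle with WT vehicle, JQ1-treated APP with WT vehicle, and young WT JQ1 with vehicle. In the JQ1-treated APP mice against WT the interval of Hist1h1c runs from 0.22 to 1.06, and in the young mice the intervals of Hist1h1c, Hist1h2be and Hist2h2be lie below 0.

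The young WT mice were compared in the same way, JQ1 against vehicle, on log2(FPKM + 0.1) with limma. Of the 10 genes 0 were called, and 3 had an unadjusted p under 0.05, beside 4.65% of all loci, all 3 with lower means in the JQ1 group. Of 18420 loci tested, 1 was called (0.00543%), and groups did not overlap for 0 of 10 members beside 0.0271% of all loci. The members' median log2 fold change was -0.04, with a median absolute size of 0.06 beside 0.07 for all loci.

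The 3 genes were a linker histone and 2 H2B genes of the replication-dependent clusters. Hist1h1c had a lowest, median and highest level of 6.29, 7.65 and 9.43 FPKM with JQ1 and 7.92, 9.32 and 14.01 FPKM with vehicle. It was below the vehicle median in 7 of 8 JQ1 mice, with a log2 fold change of -0.31 (-0.55 to -0.08, p = 0.0114, adjusted p = 0.981, limma; exact permutation p = 0.0126). Hist2h2be had 4.08, 4.47 and 5.01 FPKM with JQ1 and 4.64, 5.10 and 6.58 FPKM with vehicle, and its log2 fold change was -0.21 (-0.36 to -0.06, p = 0.0103, adjusted p = 0.981, limma; exact permutation p = 0.00575). All 8 JQ1 mice were below its vehicle median, and this permutation p was the lowest of the members, where the smallest possible is 0.000155. Hist1h2be had 1.23, 2.21 and 2.59 FPKM with JQ1 and 1.96, 2.66 and 4.01 FPKM with vehicle, again with 8 of 8 JQ1 mice below the vehicle median (log2 fold change -0.37, -0.72 to -0.02, p = 0.0386, adjusted p = 0.981, limma; exact permutation p = 0.0545). The deposited FPKM locus of Hist1h2be is joined with that of the linker histone gene Hist1h1e, so its value covers both. Vehicle replicate 7 was the highest young mouse for all 3 genes, at 14.01 FPKM for Hist1h1c, 4.01 for Hist1h2be and 6.58 for Hist2h2be. Without it the log2 fold changes were -0.23 for Hist1h1c, -0.29 for Hist1h2be and -0.16 for Hist2h2be, each with an adjusted p of 0.997 (limma). The unadjusted p was then under 0.05 for Hist1h1c and Hist2h2be but not for Hist1h2be.

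**Figure D5:**
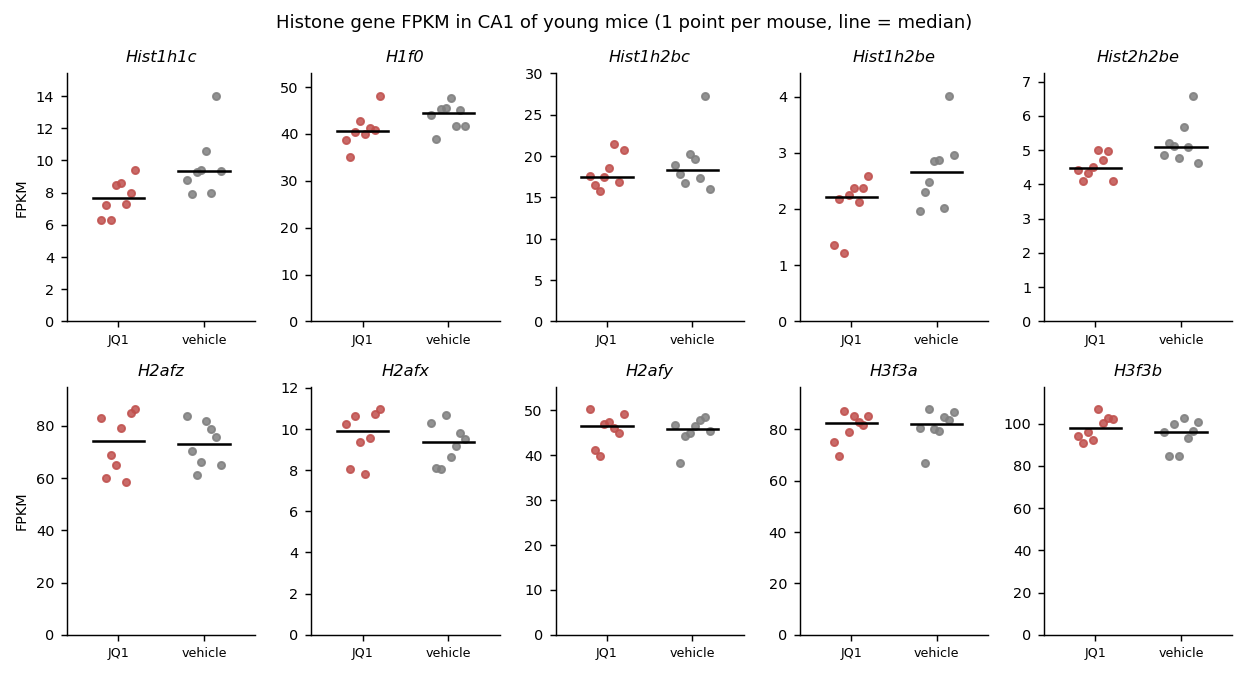
Level of each histone gene in every young WT mouse, in FPKM on a linear axis from 0 for JQ1 (8 mice) and vehicle (8 mice), with 1 point per mouse and a line at the group median. The groups overlap for all 10 genes, and vehicle replicate 7 is the highest point for Hist1h1c (14.01 FPKM), Hist1h2bc (27.3 FPKM), Hist1h2be (4.01 FPKM) and Hist2h2be (6.58 FPKM).

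Hist1h2bc had 15.8, 17.5 and 21.4 FPKM with JQ1 and 15.98, 18.3 and 27.3 FPKM with vehicle, with a log2 fold change of -0.08 (-0.27 to 0.12) that shrank to -0.00066 without vehicle replicate 7. H1f0 had 35.2, 40.7 and 48.1 FPKM with JQ1 and 38.9, 44.5 and 47.7 FPKM with vehicle, with a log2 fold change of -0.10 (-0.22 to 0.02), and 7 of 8 JQ1 mice were below the vehicle median. The variant genes had estimates of smaller size. H2afz had 58.5, 74.2 and 86.4 FPKM with JQ1 and 61.0, 73.1 and 83.7 FPKM with vehicle (log2 fold change -0.00044, -0.20 to 0.20). H2afx had 7.80, 9.89 and 11.0 FPKM with JQ1 and 8.07, 9.36 and 10.7 FPKM with vehicle (0.05, -0.12 to 0.23). Neither interval reaches beyond 0.23 on either side of 0.

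H2afy had 39.7, 46.5 and 50.3 FPKM with JQ1 and 38.2, 46.0 and 48.6 FPKM with vehicle, with a log2 fold change of 0.01 (-0.11 to 0.13). H3f3a had 69.5, 82.4 and 87.3 FPKM with JQ1 and 67.1, 82.1 and 87.9 FPKM with vehicle (-0.01, -0.13 to 0.11). H3f3b had 90.9, 98.0 and 107 FPKM with JQ1 and 84.5, 96.3 and 103 FPKM with vehicle (0.05, -0.05 to 0.16). For these 3 genes the intervals span less than 0.2 on either side of 0.

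Set side by side, the estimates for JQ1 against vehicle were 0.28 in APP and -0.31 in young WT mice for Hist1h1c, 0.40 and -0.37 for Hist1h2be, and -0.14 and -0.21 for Hist2h2be. Hist1h2bc, H2afy, H3f3a and H3f3b lay within 0.10 of 0 in both. H1f0 had 0.14 and -0.10, H2afz -0.15 and -0.00044, and H2afx -0.12 and 0.05. The 2 experiments differ in genotype, age, length of treatment and unit, and by the authors' methods in sex. Their tables were normalized separately, and the difference between the effects was not tested.

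Pairs of members were also compared within groups. Of the 45 pairs of members, 30 had a Pearson correlation above 0 across the 16 aged mice after group means were removed, with a median of 0.13, and 41 across the 16 young mice, with a median of 0.34. These are descriptions, and the values of a mouse share a library. The young value of Hist1h2be also covers Hist1h1e, which shares 50-base windows with Hist1h1c. Hist1h1c and Hist1h2be had 0.43 in the aged and 0.88 in the young mice, Hist1h1c and Hist1h2bc 0.53 and 0.71, H1f0 and H2afz 0.80 and 0.32, and H3f3a and H3f3b 0.17 and 0.67. Without the library labelled APP JQ1 replicate 4 (15 aged mice), 31 pairs were above 0 with a median of 0.13, and these 4 pairs had 0.11, 0.35, 0.82 and 0.20 in the aged mice.

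Compared with all 14964 genes at 1 CPM or more in the aged mice, Hist1h1c was most like Hpgds (r = 0.92), Lpxn (0.92) and Tifab (0.91), with -0.21, -0.01 and 0.47 for the same pairs in the young mice. H1f0 was most like Ramac (0.97), Serf1 (0.96) and Mtfp1 (0.94). The H2B genes were each most like different genes, Hist1h2bc like Eci2 (0.87), Cyp2d22 (0.87) and Mt1 (0.86), Hist1h2be like Aph1a (0.89), Preb (0.87) and E330013P04Rik (0.87), and Hist2h2be like 4930426D05Rik, H3f3aos (0.81 for both) and C7 (0.80). For the H2A variants these were Btf3l4 (0.94), Scfd1 (0.93) and Rpl7l1 (0.90) for H2afz, Actn3 (0.89), Ube2q1 (0.87) and Brf2 (0.87) for H2afx, and Syt5 (0.94), Smyd5 (0.94) and Klc1 (0.93) for H2afy. H3f3a was most like Fam19a2 and Armcx1 (0.91 for both), and H3f3b like Mrpl17 (0.92), Cdc42 (0.88) and Higd1a (0.88). These values are chosen as the highest and carry no test. In the young mice the first-named pair had -0.38 for Hist1h2bc, 0.02 for Hist1h2be and -0.20 for H2afz. It had 0.49 for H2afy, 0.19 for H3f3a and 0.57 for H3f3b. The first-named pairs of H1f0, Hist2h2be and H2afx had no young value. The other aged libraries apart on the first principal component stayed in throughout. Without the library labelled APP JQ1 replicate 4, the same pairs ran from 0.80 to 0.97, with 0.89, 0.86 and 0.86 for Hist1h1c with Hpgds, Lpxn and Tifab.

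Of 80 other histone symbols, 14 passed the filter in the aged and 14 in the young mice. Of these, 0 were called by edgeR or limma in any of the 4 comparisons. At an unadjusted p under 0.05 there were 1, 0, 1 and 1, beside 17.6%, 14.4%, 14.1% and 4.65% of all features. Of 30 histone chaperones and exchange factors, 2 rose with JQ1 in APP mice, and 0 fell, beside 1.08% of all genes called in either direction. Atrx, part of the complex that deposits H3.3 at heterochromatin and telomeres, had 206 ± 22.5 CPM with JQ1 and 143 ± 17.9 with vehicle (mean ± SD, n = 6), with a log2 fold change of 0.53 (adjusted p = 0.0114, edgeR). Dek, a chromatin protein that also handles H3.3, had 58.3 ± 7.003 and 45.7 ± 1.18 CPM, with a log2 fold change of 0.35 (adjusted p = 0.0353, edgeR). Both calls were lost with offsets for GC content and length (0.21 and 0.09, adjusted p = 0.218 and 0.722), and without the library labelled APP JQ1 replicate 4 Atrx kept an adjusted p of 0.0321 and Dek had 0.0842. In the other 3 comparisons 0 chaperones were called, beside 2.57%, 2.06% and 0.00543% of all features, and 28 of the 30 were tested in the young mice.

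Of 14 genes for the 3′ end processing of histone mRNA, 13 of them tested in the young mice, 0 were called in any comparison. At an unadjusted p under 0.05 there were 4, 1, 2 and 1, beside 17.6%, 14.4%, 14.1% and 4.65% of all features. Of 11 genes for BET proteins and P-TEFb, 0 were called as well, with 3, 2, 0 and 1 at an unadjusted p under 0.05, beside the same shares. Of 19 genes of S phase and cell division, 18 were tested in the aged and 15 in the young mice. Top2a, the topoisomerase of dividing cells, was the 1 called. It rose in APP vehicle against WT mice, 2.14 ± 0.978 CPM (SD, n = 6) against 0.451 ± 0.113 (n = 4), and in JQ1-treated APP mice, 3.06 ± 1.72 CPM (n = 6) against the same WT mice. Its log2 fold changes were 2.24 (adjusted p = 0.0207, edgeR) and 2.76 (adjusted p = 0.0137, edgeR), and leaving out 1 library raised the adjusted p to as much as 0.0888 and 0.0682. Without the library labelled APP JQ1 replicate 4 the log2 fold changes were 2.23 and 2.96 (adjusted p = 0.00242 and 0.000267, edgeR). Top2a was not called between JQ1 and vehicle in APP or young WT mice. Over all genes, 2.57% were called in APP vehicle against WT and 2.06% in JQ1-treated APP against WT.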

How the data were processed

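RNA was sequenced from CA1 tissue of 32 mice with values here. For the aged mice the authors aligned reads to mm10 with STAR and deposited HTSeq counts per gene. For the young mice the authors deposited FPKM values from Cufflinks and Cuffdiff. The submitters' notes also name TopHat and CASAVA 1.8.2. The strand setting and annotation release are not given in the sources used here.

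The 10 members and all gene lists were chosen with earlier results of these data known. Counts were scaled by TMM and tested with edgeR 4.0.16 (quasi-likelihood, robust, filterByExpr) in R 4.3.3, in 1 fit of the 3 aged groups. FPKM loci at 0.5 or more in at least 8 of 16 mice were tested as log2(FPKM + 0.1) with limma 3.58.1 (trend, robust), where fold changes understate low loci. Adjusted p-values are Benjamini-Hochberg over all features, with a threshold of 0.05. Permutation tests were exact and two-sided. Named genes were the members, genes of the lists past the threshold, and the 3 genes most correlated with each member, of which 1 is not reported here. Alternatives included DESeq2 1.42.0, other scalings and filters, GC content and length offsets, a replicate block and leaving out each library. Scripts were tested on simulated data.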

Additional observations from a re-analysis of the deposited data

Results flagged for a closer look

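In 6 of the 50 gene-by-group sets examined, 1 mouse lay farther from the rest than Dixon's 95% limit for an outlier. Chance alone flags about 1 set in 20. Hist1h1c in APP vehicle replicate 4 was highest at 18.3 CPM, where the next mouse had 14.6 CPM. In the young vehicle mice, replicate 7 was highest for Hist1h1c, 14.01 FPKM with the next at 10.6, and for Hist1h2bc, 27.3 FPKM with the next at 20.2. Young vehicle replicate 2 was lowest for H2afy, 38.2 FPKM with the next at 44.3, and for H3f3a, 67.1 FPKM with the next at 79.3. H1f0 in aged WT replicate 1 was highest at 137 CPM, where the next mouse had 94.1 CPM. The cause of these values was not tested.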

How the results depend on the processing

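Of 980 member estimates under an alternative, 340 came from settings other than leaving out 1 library, and of these 310 had the same direction and call as reported, 28 changed sign and 2 became called. Of the 640 with 1 library left out, 594, 45 and 1 did so.

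The number of members called by edgeR or limma, 0 in all 4 comparisons, changed in JQ1-treated APP against WT mice alone, to 1 (Hist1h1c) with DESeq2, to a range of 0 to 1 with 1 library left out, where the 1 came from leaving out the library labelled APP JQ1 replicate 4, and to 1 without the 4 libraries apart on the first principal component, which was chosen after seeing the data. The log2 fold change of Hist1h1c was 0.63, 0.74 and 0.89 there, and its adjusted p with 1 library left out ran from 0.0182 to 0.363. The 4 libraries include the one labelled APP JQ1 replicate 4.

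Signs changed for uncalled estimates alone. For APP JQ1 against vehicle, GC content and length offsets gave H2afx 0.17, H2afy 0.026 and H3f3a -0.13, and with the replicate block added 0.17, 0.030 and -0.13. For APP vehicle against WT, the replicate block gave Hist1h2be -0.0088 and H2afz 0.076, the offsets gave H2afx -0.14, both together gave Hist1h2be -0.033, H2afz 0.011 and H2afx -0.13, and leaving out the 4 libraries gave H2afz 0.19 and H2afx -0.061. For JQ1-treated APP against WT, Hist2h2be was -0.0037 with DESeq2, -0.0049 with RLE scaling, -0.015 with no filter, -0.15 with the offsets, -0.095 with the offsets and the replicate block, -0.0028 with the 2 groups alone and -0.032 without the 4 libraries. There H2afx was 0.0034 with the replicate block, 0.029 with the offsets and 0.044 with both, H3f3b was 0.048 with the replicate block and 0.0030 without the 4 libraries, and H3f3a was 0.0093 without them. In young mice H2afz was 0.0013 after median-ratio rescaling.

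With 1 library left out, APP JQ1 against vehicle gave ranges of -0.040 to 0.027 for H2afy and -0.041 to 0.11 for H3f3a, and APP vehicle against WT gave -0.18 to 0.24 for H2afz and -0.15 to 0.025 for H3f3a. JQ1-treated APP against WT gave H1f0 -0.14 to 0.065, Hist2h2be -0.080 to 0.13, H2afz -0.32 to 0.095, H2afx -0.12 to 0.030, H3f3a -0.11 to 0.064 and H3f3b -0.050 to 0.036. Young mice gave H2afz -0.037 to 0.043, H2afy -0.023 to 0.040 and H3f3a -0.05 to 0.021. The cause of these changes was not tested.

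The labels do not say what a replicate number marks. The mean correlation of same-numbered deviations was 0.124, -0.049, -0.215 and 0.026 in the order of the 4 comparisons, from 6, 4, 4 and 8 pairs. For different numbers it was -0.021, 0.020, 0.050 and -0.0037. So few pairs cannot exclude a shared day or batch. The replicate block called 87, 35, 21 and 0 features in place of 184, 436, 349 and 1, and 0 members in each. Under the block the call of Top2a was lost (adjusted p = 0.0719 and 0.081, edgeR), as was that of Dek (adjusted p = 0.0751), which was also lost with no filter (0.0542) and with the 2 groups alone (0.0582). DESeq2 called 749, 792 and 790 genes in the aged comparisons. The offsets called 42 genes in APP JQ1 against vehicle, the offsets with the block 33, 29 and 36 in the 3 aged comparisons, the 2 groups alone 679 in APP vehicle against WT and 227 in JQ1-treated APP against WT, and leaving out the 4 libraries 76 in APP JQ1 against vehicle and 667 in JQ1-treated APP against WT. Leaving out 1 library called 65 (without APP JQ1 replicate 2) to 446 (without WT replicate 1), 154 (without WT replicate 1) to 601 (without the library labelled APP JQ1 replicate 4), and 11 (without WT replicate 5) to 651 genes, and 0 to 2 young loci.

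Depth limits the low genes most, such as Hist1h2be with 2.64 to 7.20 CPM, and no depth is known for the FPKM values.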
